A study of Mus musculus with 45 samples.

Results

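The mitochondrial ribosomal protein genes encode the proteins of the mitoribosome, the ribosome inside mitochondria. They were taken as every gene entry whose symbol starts with Mrpl or Mrps followed by a digit, which gave 76 of 24918 entries in the RNA sequencing table. Of these, 47 carried large subunit symbols (Mrpl) and 29 carried small subunit symbols (Mrps), and they were spread over 17 chromosomes. All 76 passed the filter on low counts, which left 12961 entries to be tested. This filter therefore left no member out of the results below.

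RNA was sequenced from colonic epithelium, the lining of the large intestine, which was released with EDTA from the whole colon of male C57BL/6 mice (C57BL/6J in the study's methods). The mice were 6 weeks old at the start, and all ate lard-based diets for 20 weeks. Control mice ate a diet with 10% fat throughout, obese mice a diet with 60% fat throughout, and formerly obese mice the diet with 60% fat for 15 weeks followed by 5 weeks of that with 10% fat. Each group held 5 mice, 1 library each. Diet-induced obesity in male mice of 1 strain is the model, the epithelium is a mixture of cell types, and fewer cells of a type cannot be told apart from less RNA per cell. The p-values measure the spread between these mice only.

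Mitoribosomes translate the few proteins that mitochondrial DNA encodes, all of them subunits of the respiratory chain complexes and ATP synthase. The ribosomal proteins themselves are encoded in the nucleus, made in the cytosol and imported. Some descend from bacterial ribosomal proteins, and others have no bacterial counterpart and were added during the evolution of mitochondria. Differentiated colonocytes depend on mitochondrial respiration, because they oxidize butyrate from the gut lumen as a main fuel.

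By these origins the members fell into 29 large subunit proteins with bacterial homologs, 20 large subunit proteins specific to mitochondria, 16 small subunit proteins with bacterial homologs and 10 small subunit proteins specific to mitochondria. Symbols and places differ for a few. Mrps18a and Mrps30 carry small subunit symbols, but their proteins sit in the large subunit, and they were counted there. Mrps18a and Mrps18b were counted as specific to mitochondria, although they are related to Mrps18c, which was counted as a bacterial homolog. Values by origin depend on this choice. The product of Mrps36 is now known to work in the alpha-ketoglutarate dehydrogenase complex, and this 1 member was kept apart.

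The 15 libraries held 15230391 to 22762095 counts. Of 15 epithelial marker genes, 15 were detected, at a summed level of 22300 to 29300 CPM (each gene's counts scaled to the size of its library) in control, 23800 to 29000 in obese and 25900 to 31400 in formerly obese mice. Markers of other cells were lower. The smooth muscle list (1 of 7 genes past the filter) was the highest of them. It summed to 97.6 to 124 CPM in control, 116 to 133 in obese and 117 to 145 in formerly obese mice. Almost all of that sum came from the 1 gene past the filter, at a log2 CPM of 6.60 to 6.96 in control mice. The sum therefore says little about smooth muscle as a cell type. The fibroblast list (4 of 6 genes past the filter) summed to 2.34 to 10.9 CPM in control, 6.78 to 17.4 in obese and 6.01 to 30.6 in formerly obese mice. The immune cell list (6 of 9) summed to 21.4 to 36.9, 28.3 to 54.1 and 24.3 to 46.3 CPM. The adipocyte genes Lep and Plin1 and the glial gene Sox10 were at 0 in all libraries. The adipocyte list as a whole (1 of 5 genes past the filter) summed to 2.88 to 5.48 CPM in control, 3.67 to 7.49 in obese and 4.89 to 12.1 in formerly obese mice, and the gene tested, Cidec, was called higher in formerly obese than in control mice (log2 fold change 0.93). The epithelial markers had a mean log2 CPM of 10.15 to 10.29 in formerly obese, 9.98 to 10.20 in obese and 9.98 to 10.24 in control mice. Not all moved alike. Of the 15, 11 had a log2 fold change above 0 in formerly obese against obese mice. The number was 9 in formerly obese and 8 in obese against control mice. Car4 and Slc26a3 were called higher in formerly obese than in obese mice by the rule given below (log2 fold changes 0.37 and 0.62). Car4, Slc26a3 and Krt20 were called higher in formerly obese than in control mice (0.34, 0.41 and 0.55). The part of these marker genes in the results for the members was not tested.

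Each member was expressed, at levels that differed widely between members. CPM divided by the exon length in kb allows levels to be compared between genes, and on this scale the median over the members was 30.3, against 9.58 over 12942 tested genes with an exon annotation. The mitoribosomal genes were short, with a median exon length of 1098 bases against 3053.5 over the tested genes, and their median GC content was 51.6% against 50.3%.

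**Figure D1:**
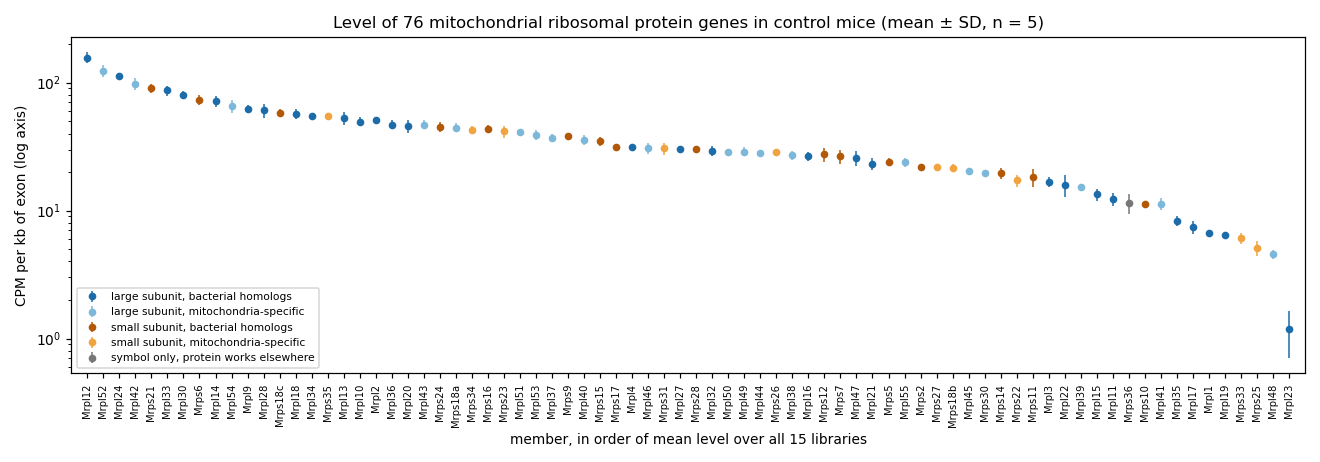
CPM per kb of exon (log axis) in control mice for each of the 76 members, in order of their mean over all 15 libraries. Points are means and bars SD (n = 5), coloured by subunit and origin. Mrpl12 was highest, at 157 CPM per kb, and Mrpl23 lowest, at 1.18.

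Mrpl12, which encodes a protein of the L7/L12 stalk, had the highest level, 157 ± 14.9 CPM per kb in control mice (SD, n = 5). It was followed by Mrpl52 at 124 ± 13.0, Mrpl24 at 113 ± 3.70 and Mrpl42 at 97.7 ± 10.9 CPM per kb. The lowest were Mrpl23 at 1.18 ± 0.473, Mrpl48 at 4.58 ± 0.369, Mrps25 at 5.13 ± 0.687 and Mrps33 at 6.08 ± 0.602. In this order of 76 members, 12 of 75 pairs of neighbours differed by more than the larger SD of the pair in control mice, and 63 did not, so that most neighbouring ranks were not resolved. Mrpl12 and Mrpl52 were resolved, as were Mrpl48 and Mrpl23, whereas Mrpl52 and Mrpl24 were not.

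The subunit groups had like medians. The median level per kb was 31.3 for large subunit bacterial homologs, 29.8 for large subunit proteins specific to mitochondria, 30.8 for small subunit bacterial homologs and 25.1 for small subunit proteins specific to mitochondria. Members within a group differed far more, from 1.31 to 152 among large subunit bacterial homologs and from 11.5 to 92.9 among small subunit bacterial homologs.

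Some low levels have a limit in the sequence. Mrpl23 gave only 6 to 23 counts per library, and 79.1% of the 50-base windows of its transcript have an exact copy elsewhere in the GRCm38.p6 genome. A 50-base read from such a window cannot be placed uniquely on its own. Whether the other read of its pair could place it was not examined. The share was 86.2% for Mrps36, 56.1% for Mrps18b, 51.5% for Mrps33 and 50.8% for Mrpl27. The levels of those members are therefore uncertain. The part of these copies in the measured levels was not tested.

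The members whose symbols and places differ were expressed within the range of the rest. Mrps18a, Mrps18b and Mrps18c encode 3 related proteins at different places of the mitoribosome, and their levels in control mice were 44.5 ± 3.55, 21.6 ± 1.53 and 57.9 ± 4.26 CPM per kb. Mrps30 was at 19.5 ± 0.570 and Mrps36 at 11.4 ± 2.04 CPM per kb (SD, n = 5).

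The promoters of the members were read for 3 short motifs linked to nuclear control of mitochondrial genes. RefSeq promoters, 250 bases before to 50 after the gene start, were at hand for 67 of 76 members. The core of the NRF1 site, CGCATGCG, was found on either strand in 7 of 67 (10.4%), against 3.92% of promoters of genes past the filter and 2.57% of 17906 promoters in all. The ETS letters CCGGAAGT, which GABP can bind, were in 11 (16.4%, against 8.55% and 5.42%), and the YY1 letters AAGATGGC in 12 (17.9%, against 4.69% and 3.28%). At least 1 of the 3 was in 28 of 67 (41.8%, against 16.2% and 10.7%). No test was made, and a match of letters is not a binding site.

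YY1 letters lay just after the gene start in several members, first base at position 12 in Mrps18a, 15 in Mrps27, 17 in Mrpl49, 19 in Mrps7, 24 in Mrpl35, 27 in Mrpl37, 28 in Mrpl42 and 37 in Mrps24, where 1 is the first transcribed base. Mrpl32 held the most matches, with the NRF1 core at -86 and -23 and the YY1 letters at -242. The promoters of the 4 members below are shown because these genes are among those lower at an unadjusted p under 0.05 in formerly obese than in obese mice. Capitals mark the motif letters.
Mrps10, GRCm38.p6, chr17:47368947-47369246, plus strand: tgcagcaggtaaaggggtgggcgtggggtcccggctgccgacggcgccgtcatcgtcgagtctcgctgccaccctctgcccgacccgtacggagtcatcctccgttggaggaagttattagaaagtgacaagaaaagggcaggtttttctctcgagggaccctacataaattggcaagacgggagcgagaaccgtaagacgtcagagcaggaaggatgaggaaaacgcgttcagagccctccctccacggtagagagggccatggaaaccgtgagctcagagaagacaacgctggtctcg
Mrps12, GRCm38.p6, chr7:28741772-28742071, minus strand: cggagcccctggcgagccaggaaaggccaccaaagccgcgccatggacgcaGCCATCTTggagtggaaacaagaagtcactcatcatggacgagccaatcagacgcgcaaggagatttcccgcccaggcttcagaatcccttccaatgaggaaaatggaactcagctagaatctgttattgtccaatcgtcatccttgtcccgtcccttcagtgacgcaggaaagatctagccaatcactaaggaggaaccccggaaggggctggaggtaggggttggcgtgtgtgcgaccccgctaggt
Mrps24, GRCm38.p6, chr11:5707652-5707951, minus strand: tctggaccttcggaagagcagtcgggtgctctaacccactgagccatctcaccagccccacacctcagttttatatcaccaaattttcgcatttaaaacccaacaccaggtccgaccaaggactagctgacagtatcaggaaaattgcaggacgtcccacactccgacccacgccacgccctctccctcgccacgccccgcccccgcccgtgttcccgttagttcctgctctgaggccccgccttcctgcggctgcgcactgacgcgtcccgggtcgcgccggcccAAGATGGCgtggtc
Mrps26, GRCm38.p6, chr2:130563507-130563806, plus strand: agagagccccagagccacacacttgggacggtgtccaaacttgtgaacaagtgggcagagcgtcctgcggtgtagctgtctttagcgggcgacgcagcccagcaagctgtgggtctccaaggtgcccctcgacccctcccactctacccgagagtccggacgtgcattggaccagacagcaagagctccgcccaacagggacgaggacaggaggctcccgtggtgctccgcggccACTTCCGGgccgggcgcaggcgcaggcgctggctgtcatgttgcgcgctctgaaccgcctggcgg
The Mrps10 promoter held none of the 3 motifs, and its RefSeq start lies 310 bases from the start in the count table. Mrps12 and Mrps24 hold the YY1 letters, at -199 and 37, and Mrps26 the ETS letters at -15.

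Many members shared a start region with another gene. For 26 of 76 members (34.2%), a gene on the other strand started within 1000 bases and ran the opposite way, against 13.7% of gene symbols past the filter and 9.04% of all symbols. Mrpl46 and Mrps11 form such a pair with each other, their starts 42 bases apart. Mrps12 lies 187 bases from Sars2, the mitochondrial seryl-tRNA synthetase, which had levels of 15.0 ± 0.940 CPM in obese and 13.3 ± 1.79 CPM in formerly obese mice (SD, n = 5) and did not pass the test. Mrps34 lies 33 bases from Eme2, and Mrpl47 lies 308 bases from Ndufb5, a subunit of respiratory complex I.

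Replicates of a group were close. The median SD within groups was 0.10 on the log2 CPM scale over the members, from 0.07 to 0.43 for Mrpl23, against 0.13 over all tested genes.

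One library stood apart and is given before the comparisons. In control replicate 4 the mean log2 CPM over the 76 members was 5.33, against 5.12 to 5.16 in the other control libraries, 5.17 to 5.21 in obese and 5.11 to 5.21 in formerly obese mice. Of 76 members, 60 were highest of their group in this library, where 27.3% of all genes were. The members summed to 3571 CPM there, against 3073 to 3172 in the other control libraries.

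Other measures moved with it. The epithelial markers had a mean log2 CPM of 10.24 in control replicate 4, against 9.98 to 10.02 in the other controls, and the fibroblast markers one of -0.64, against -0.37 to 1.25. The respiratory chain and ATP synthase genes (74 genes, a list chosen after the data were seen) stood at 7.25 against 6.95 to 7.10. Over all genes, the difference between this library and the other controls correlated with transcript length (Spearman's rho -0.26 across 12942 genes, which are not independent). With the length trend removed, the members still stood 0.15 higher in this library than in the mean of the other controls on the log2 scale, and 0.23 higher with the GC trend removed. The part of these measures in the difference was not tested.

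**Figure D2:**
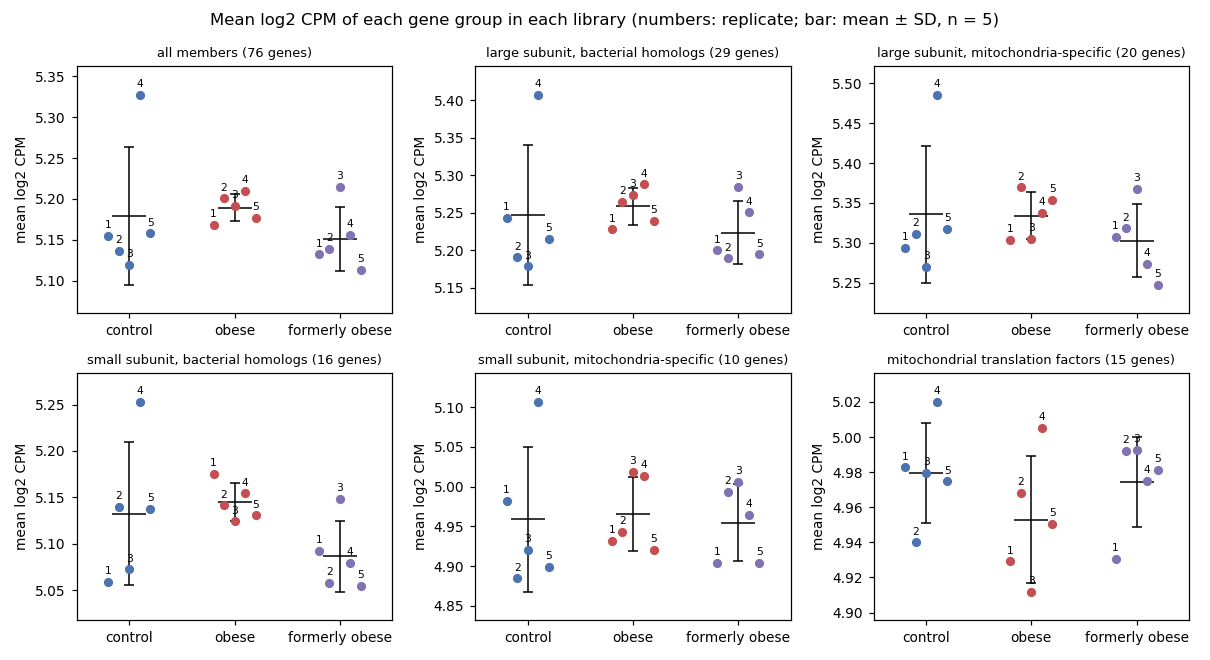
Mean log2 CPM of the members, of their 4 subunit groups and of mitochondrial translation factors in each library. Points are libraries, numbered by replicate, and bars are mean ± SD (n = 5); axes do not start at 0. Control replicate 4 was the highest library in each panel, and over all members it stood at 5.33.

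The members also moved together from library to library. After each gene's group means were taken off, the mean correlation over pairs of members was 0.26 across 15 libraries, against 0.00 over pairs of all tested genes. Without control replicate 4 it was 0.07 across 14 libraries. These values are a description, since all points share the same libraries. After scaling, the deviations of all genes largely cancel within a library, which holds their mean correlation near 0. The value over all genes therefore does not show whether the members moved together more than other gene families, and this was not tested. Against the mean of the other members, the correlation was over 0 for 69 of 76 members, and highest for Mrpl54 and Mrpl12 (both 0.87). It was lowest for Mrpl24 (-0.46), Mrpl19 (-0.33) and Mrps10 (-0.20). Without control replicate 4 the median over the members fell from 0.58 to 0.25, Mrpl54 and Mrpl12 stood at 0.68 and 0.69, Mrps10 at 0.17, and the lowest were Mrpl24 (-0.62) and Mrps6 (-0.60). Formerly obese replicate 3 came next after control replicate 4, as the highest of its group for 38 of 76 members.

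The first comparison asked whether mitoribosomal gene expression differed in obese mice. No member passed the cutoffs. Calls required 3 things of a gene: more than a 1.2-fold difference up or down, p under 0.01, and p under 0.25 after Benjamini-Hochberg adjustment across every tested gene. By edgeR 0 of 76 members were called in obese against control mice, where 1.58% of all tested genes were, and DESeq2 also called 0. At an unadjusted p under 0.05, 2 members were higher (2.63%, against 5.01% of all genes) and 2 were lower (2.63%, against 5.85%). The median log2 fold change was -0.01, with 35 of 76 members above 0, beside a median of 0.00 and 50.1% above 0 over all genes.

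The precision bears on this result. For 68 of 76 members the whole 95% interval of the fold change lay within 1.2-fold in both directions. The 8 others included Mrpl23, Mrps36, Mrps6 and Mrps10. All 20 large subunit proteins specific to mitochondria and all 10 small subunit proteins specific to mitochondria had such narrow intervals.

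**Figure D3:**
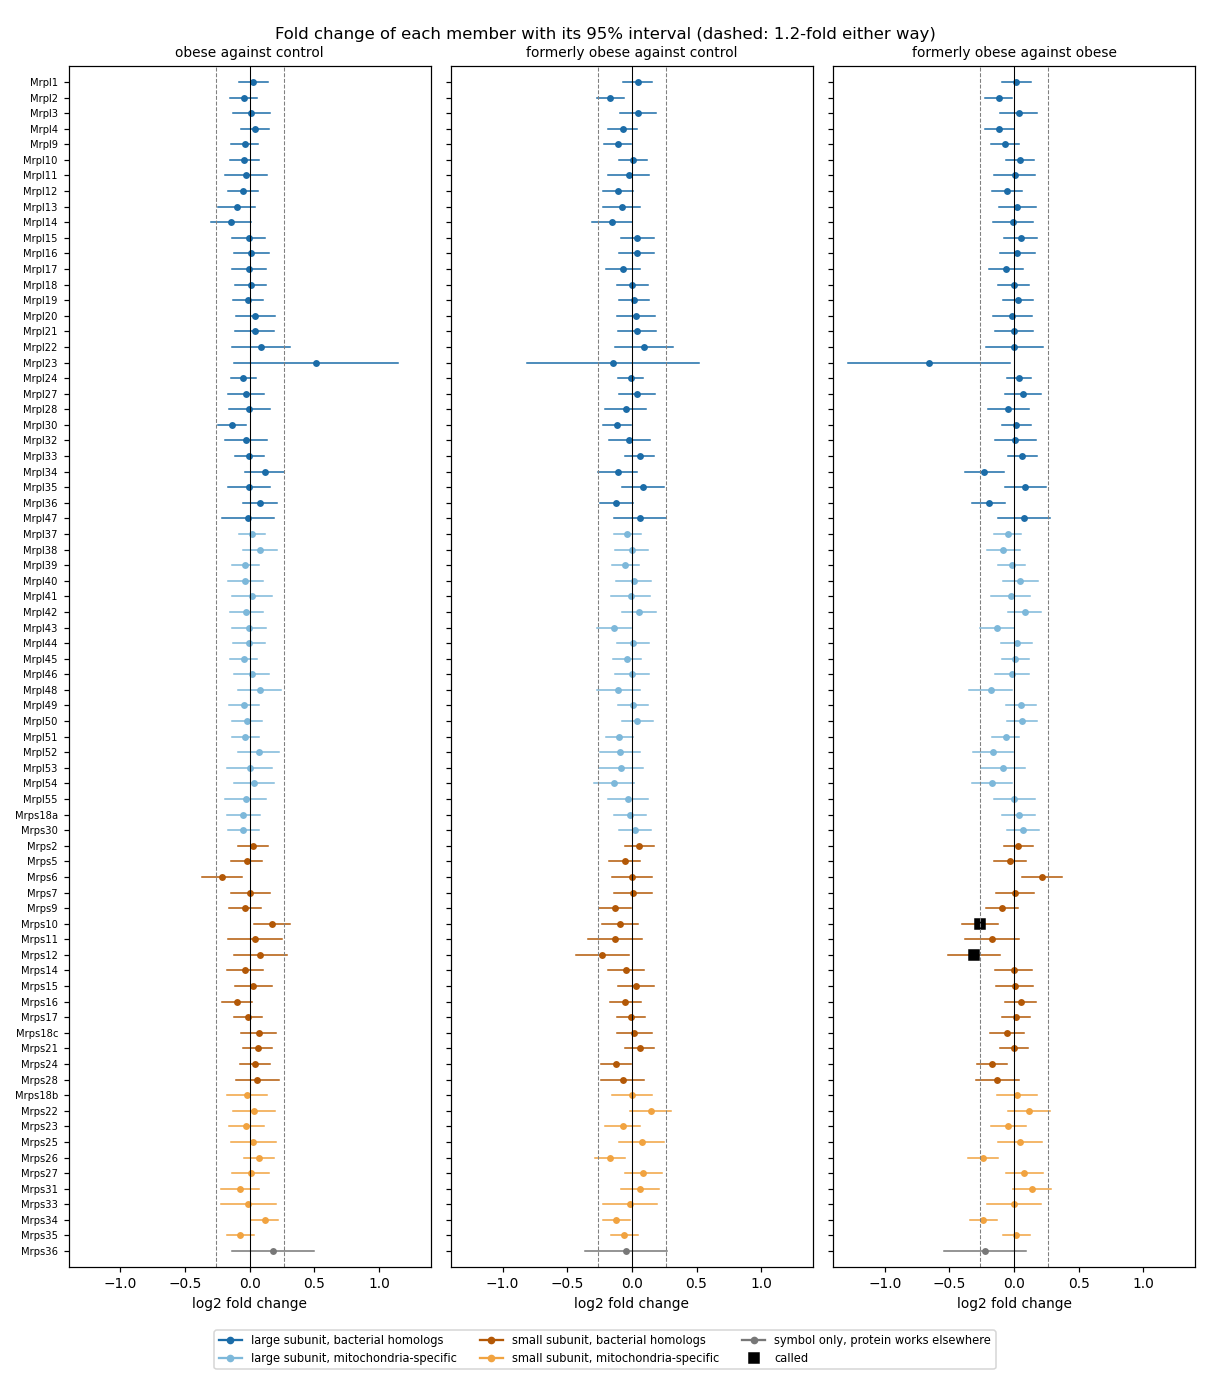
Log2 fold change of each member in the 3 comparisons, with 95% intervals from the edgeR fit on 5 libraries a group. Dashed lines mark a fold change of 1.2 in either direction and black squares the 2 called members, Mrps10 and Mrps12 in formerly obese against obese mice; the widest intervals are those of Mrpl23.

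Mrps6, which encodes the homolog of bacterial ribosomal protein S6, had the smallest p-value. Its control libraries read 55.5, 64.9, 52.4, 59.7 and 52.7 CPM and its obese libraries 51.6, 50.8, 45.4, 50.1 and 48.0 CPM. The obese libraries were all below the control libraries, the only member of 76 without overlap (1.32%), where 2.47% of all genes did not overlap. The log2 fold change was -0.21 (SE 0.07; edgeR adjusted p = 0.305), which did not pass the test. The gene shares 29138 bases with Slc5a3, annotated inside it on the same strand, so that reads of the 2 genes may not be separable.

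Mrps10, a small subunit protein gene with a bacterial homolog, had a log2 fold change of 0.17 (SE 0.07; edgeR adjusted p = 0.347) and Mrps34, specific to mitochondria, one of 0.12 (SE 0.05; edgeR adjusted p = 0.411). Mrpl30 had one of -0.13 (SE 0.05; edgeR adjusted p = 0.349) and Mrpl14 one of -0.14 (SE 0.07; edgeR adjusted p = 0.483). None of these passed the test. Mrpl23 had the largest value, 0.51, but with an SE of 0.30 on its few counts (edgeR adjusted p = 0.559).

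The direction of the median depended on control replicate 4. Without that library the median log2 fold change of the members in obese mice was 0.05 and 56 of 76 were above 0, at a median of 0.00 over all genes. The count at an unadjusted p under 0.05 was then 5 of 76 higher, where 5.94% of all genes were. It was 1 lower (1.32%, against 6.49% of all genes), and still no member was called.

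The second comparison, formerly obese against control mice, asked what remained after 5 weeks on the low-fat diet. Again 0 of 76 members were called by edgeR, where 3.72% of all genes were, and DESeq2 called 0. At an unadjusted p under 0.05, 10 members were lower (13.2%, against 8.63% of all genes) and 0 were higher (against 8.10%). The median log2 fold change was -0.02 with 31 of 76 above 0, beside 0.00 and 49.8% over all genes. For 63 of 76 members the 95% interval lay within 1.2-fold in both directions. Both comparisons so far share the control libraries, control replicate 4 among them, and their values are not independent.

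Mrpl2, which encodes a protein near the peptidyl transferase center, had the smallest p-value. Control libraries read 54.1, 51.6, 52.2, 58.2 and 55.6 CPM, and formerly obese libraries 49.0, 45.9, 53.1, 46.6 and 47.4 CPM. Only formerly obese replicate 3 reached into the control range. The log2 fold change was -0.17 (SE 0.05; edgeR adjusted p = 0.0931), which is under the fold cutoff.

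Mrps26, a small subunit protein gene specific to mitochondria, read 26.04, 27.2, 27.3, 28.6 and 28.1 CPM in control libraries. In formerly obese libraries it read 25.3, 24.8, 24.3, 25.9 and 21.7 CPM. All formerly obese libraries lay below all control libraries, the only member without overlap (1.32%), where 3.62% of all genes did not overlap. Its log2 fold change of -0.17 (SE 0.06; edgeR adjusted p = 0.119) was also under the cutoff.

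Mrps34 and Mrps12 had values of -0.12 (SE 0.05; edgeR adjusted p = 0.227) and -0.23 (SE 0.10; edgeR adjusted p = 0.242). On the higher side, the smallest p-values belonged to Mrps22, Mrps27 and Mrpl33, with log2 fold changes of 0.14 (SE 0.08), 0.09 (SE 0.07) and 0.06 (SE 0.05). None of them passed an unadjusted p of 0.05.

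Here too 1 control library weighed in. Without control replicate 4, 3 members were lower (3.95%, against 10.0% of all genes) and 5 higher (against 9.71%) at an unadjusted p under 0.05. The median was then 0.02 with 41 of 76 above 0. Removing the trend of fold change with transcript length left 3 lower (3.95%, against 9.26% of all genes) and 2 higher (against 6.67%). The count of lower members was 4 without control replicate 5 (5.26%, against 7.34%) and 5 without formerly obese replicate 2 or 5 (6.58%, against 8.09% and 8.28%). It was 6 without formerly obese replicate 1 (7.89%, against 8.35%) and 3 without formerly obese replicate 4 (3.95%, against 7.54%).

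The third comparison, formerly obese against obese mice, gave the only calls among the members. Its fold changes set the obese against the formerly obese libraries, while the control libraries enter the estimate of the spread. There were 2, both small subunit proteins with bacterial homologs and both lower in formerly obese mice, Mrps10 and Mrps12. This was 2.63% of 76 members, where 2.65% of all genes were called, so that the share of called members was near the background. At an unadjusted p under 0.05, 14 members were lower (18.4%, against 7.05% of all genes) and 1 was higher (1.32%, against 6.30%). The median was nevertheless 0.00, with 37 of 76 above 0 (48.7%, against 51.0% of all genes). The count of 14 fell to 7 without obese replicate 2 or formerly obese replicate 5 (9.21%, against 5.63% and 5.44% of all genes). It fell to 8 without formerly obese replicate 2 (10.5%, against 6.56%) and to 9 without formerly obese replicate 4 (11.8%, against 7.03%).

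Mrps10 read 15.9, 14.5, 15.8, 15.0 and 13.9 CPM in obese libraries and 12.3, 11.8, 12.9, 13.3 and 12.2 CPM in formerly obese libraries. The groups did not overlap, and control libraries, at 14.1, 13.8, 13.5, 12.7 and 12.6 CPM, overlapped with both. The log2 fold change was -0.26 (SE 0.07; edgeR adjusted p = 0.0846). The fold change lies at the cutoff of 1.2, so the call was lost where the estimate moved slightly, as with DESeq2 (-0.26) or without obese replicate 1 (-0.24), obese replicate 3 (-0.24), or formerly obese replicate 1 (-0.26), 2 (-0.24) or 5 (-0.25). Of its transcript windows, 35.1% have a copy elsewhere in the genome.

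Mrps12, the homolog of bacterial protein S12 of the decoding center, read 30.9, 32.7, 30.9, 28.8 and 28.4 CPM in obese libraries. In formerly obese libraries it read 27.7, 22.2, 28.9, 21.4 and 21.9 CPM. Replicates 1 and 3 stood well above the other 3 formerly obese libraries, and replicate 3 reached into the obese range. Control libraries read 26.4, 26.1, 25.4, 32.9 and 32.4 CPM and overlapped with both groups, and 3 of the 5 formerly obese libraries lay below every control library. The log2 fold change was -0.31 (SE 0.10; edgeR adjusted p = 0.157). The call was lost without obese replicate 1 (-0.30), 2 (-0.28) or 3 (-0.30), and without formerly obese replicate 2 (-0.28), 4 (-0.27) or 5 (-0.27).

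**Figure D4:**
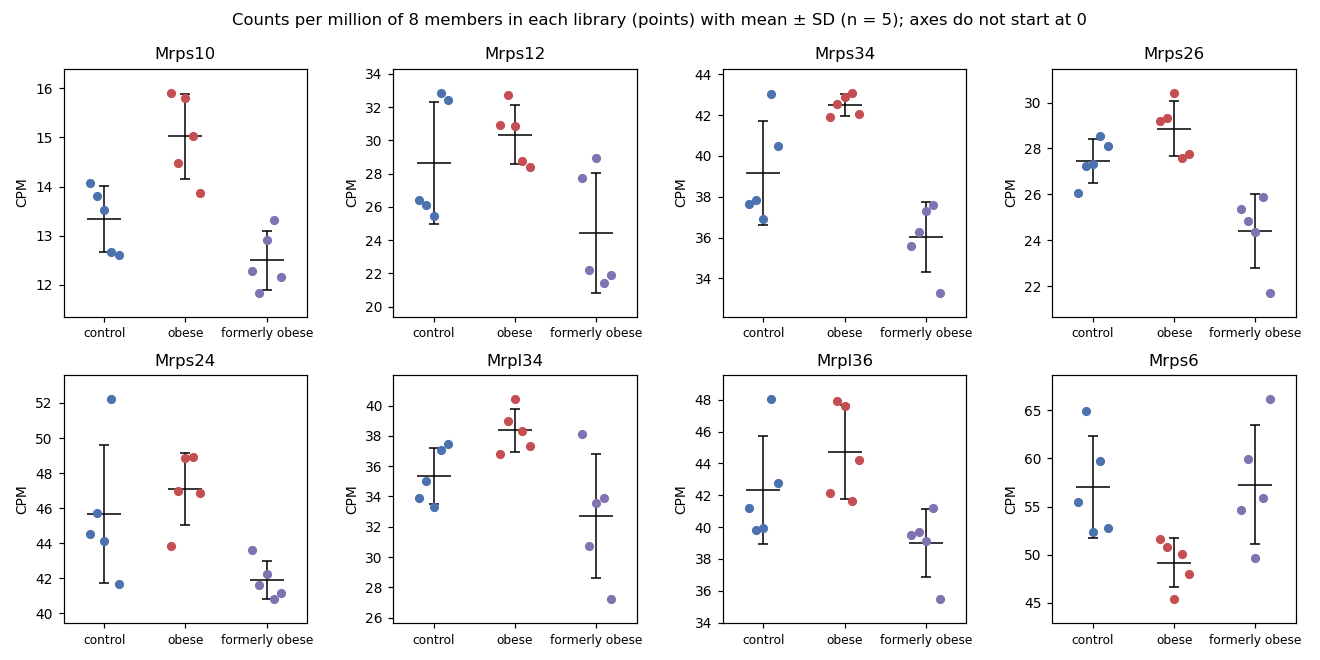
CPM of 8 members in each library (points), with mean ± SD (n = 5); axes do not start at 0. Mrps34 and Mrps26 separate obese from formerly obese libraries, at 42.5 and 28.9 CPM against 36.0 and 24.4 CPM, and Mrps6 is the one shown that was higher in formerly obese mice.

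The smallest p-values of this comparison belonged to members that missed the call by the fold cutoff alone. Mrps34, which encodes a mitochondria-specific protein needed for a stable small subunit, read 41.9, 42.5, 42.9, 43.1 and 42.0 CPM in obese libraries. In formerly obese libraries it read 35.6, 36.3, 37.3, 37.6 and 33.3 CPM. The groups were well apart, with a log2 fold change of -0.24 (SE 0.05; edgeR adjusted p = 0.0541).

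Mrps26 read 29.2, 29.3, 30.4, 27.6 and 27.7 CPM in obese libraries, all above its formerly obese libraries, with a log2 fold change of -0.24 (SE 0.06; edgeR adjusted p = 0.0625). With no fold cutoff and the same p cutoffs, 8 members would be called. This count is given without the share of all genes, so an excess over the background cannot be read from it. Those beyond Mrps10, Mrps12, Mrps34 and Mrps26 were Mrpl34, Mrpl36, Mrps24 and Mrps6, of which the first 3 fall outside the rule for named genes and were picked after their values were seen. In all, 5 of 76 members did not overlap between these groups (6.58%, against 3.38% of all genes), namely Mrps10, Mrps24, Mrps26, Mrps34 and Mrpl36.

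Mrps24, a small subunit protein gene, read 43.8, 47.0, 48.8, 48.9 and 46.8 CPM in obese libraries and 43.6, 41.6, 42.2, 40.8 and 41.2 CPM in formerly obese libraries. The groups met but did not overlap (log2 fold change -0.17, SE 0.06; edgeR adjusted p = 0.177). Mrpl34 and Mrpl36, small proteins of the large subunit with bacterial homologs, had log2 fold changes of -0.23 (SE 0.07; edgeR adjusted p = 0.154) and -0.20 (SE 0.06; edgeR adjusted p = 0.157).

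Mrps6 was the member higher in formerly obese mice at an unadjusted p under 0.05. Its formerly obese libraries read 54.6, 60.0, 49.7, 55.9 and 66.1 CPM, above the obese libraries except for replicate 3, which lay among them. The log2 fold change was 0.22 (SE 0.07; edgeR adjusted p = 0.193), under the fold cutoff, and the level in formerly obese mice, 57.3 ± 6.16 CPM, was close to that in control mice, 57.0 ± 5.27 CPM (SD, n = 5). The log2 fold change between those 2 groups was 0.00, with a 95% interval from -0.15 to 0.16. Mrps31 and Mrps22 came next on the higher side, with values of 0.14 (SE 0.07) and 0.11 (SE 0.08) that did not pass the test.

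By subunit group, the members lower at an unadjusted p under 0.05 were 5 of 29 large subunit bacterial homologs, 4 of 20 large subunit proteins specific to mitochondria, 3 of 16 small subunit bacterial homologs and 2 of 10 small subunit proteins specific to mitochondria. They were thus spread over both subunits and both origins. The group medians were 0.00, -0.02, -0.02 and 0.02.

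GC content moved with these fold changes. Across the 76 members, the log2 fold change of formerly obese against obese mice fell with the GC content of the exons (Spearman's rho -0.49), and that against control mice did too (-0.53). Over 12942 genes, the values were -0.27 and -0.23, and for obese against control mice they were 0.19 over the members and 0.03 over all genes. These are descriptions across genes, which share libraries and are not independent. The 14 lower members had a median GC content of 57.2% and the other 62 one of 50.3%.

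**Figure D5:**
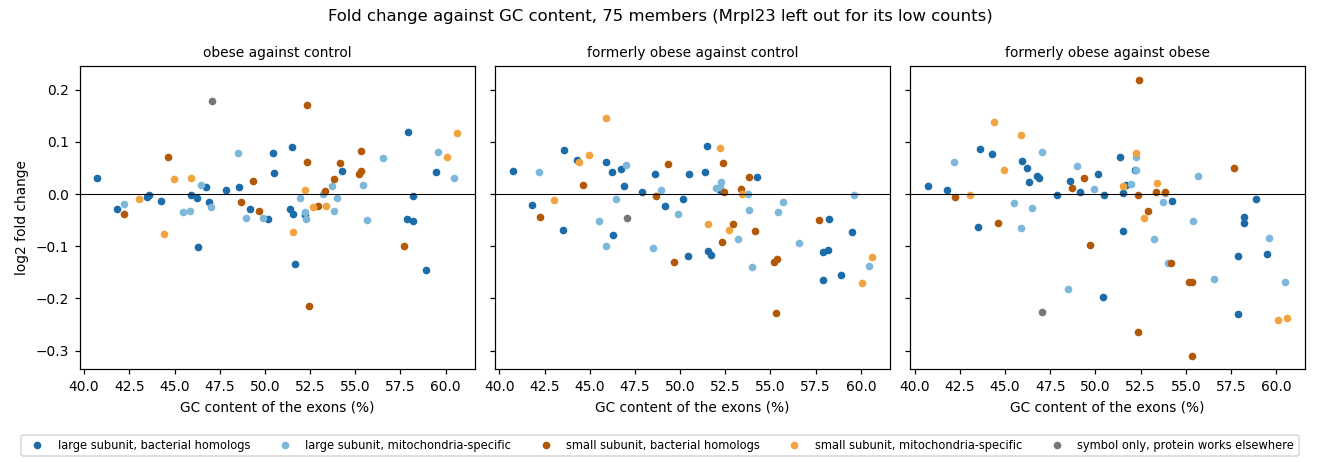
Log2 fold change of 75 members against the GC content of their exons in the 3 comparisons, coloured by subunit and origin; Mrpl23 is left out for its low counts. In formerly obese against obese mice, Spearman's rho over all 76 members was -0.49, and the points at the highest GC content lie below 0.

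With the GC trend over all genes removed, 7 members were lower at an unadjusted p under 0.05 (9.21%, against 5.66% of all genes) in place of 14. Mrps34 moved from -0.24 to -0.12 (edgeR adjusted p = 0.488) and Mrps26 from -0.24 to -0.14 (edgeR adjusted p = 0.386). Mrps10, of middling GC content (52.3%), stayed at -0.27 (edgeR adjusted p = 0.125) and was still called, whereas Mrps12, at -0.29 (edgeR adjusted p = 0.268), was not. Whether the GC trend is technical was not tested.

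Genes that work with the mitoribosome were compared in the same fit. Of 7 mitoribosomal proteins whose genes carry other symbols, 1 was called. Gadd45gip1, which encodes a large subunit protein also known as Crif1, read 27.2, 25.1, 23.9, 22.4 and 26.1 CPM in obese libraries. In formerly obese libraries it read 22.4, 20.0, 21.5, 18.4 and 19.7 CPM. The groups overlapped slightly, at 22.4 CPM. It was lower in formerly obese mice by the test, with a log2 fold change of -0.29 (SE 0.07; edgeR adjusted p = 0.0812). The call was lost with the GC trend removed (-0.25) and without obese replicate 1 (-0.25) or formerly obese replicate 4 (-0.25).

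Of 15 mitochondrial translation factors and 20 mitoribosome assembly factors that were tested, 0 were called in any comparison by edgeR. Of 17 mitochondrial aminoacyl-tRNA synthetases, Lars2, the leucyl enzyme, was called lower in formerly obese than in obese mice (log2 fold change -0.57, SE 0.19; edgeR adjusted p = 0.193). Its obese libraries read 375, 181, 160, 175 and 151 CPM against 126 to 151 in formerly obese libraries, so that obese replicate 1 alone stood far above the rest, and without it the value was -0.25 and the call was lost. It was lost as well without obese replicate 2, without control replicate 2, 3 or 5, without any 1 of the formerly obese libraries, with DESeq2, with only the 2 groups compared, with the GC trend removed and with the replicate block. Of 16 genes for maintenance of mitochondrial DNA and RNA, Polg2, the accessory subunit of the mitochondrial DNA polymerase, was called lower in obese than in control mice. It went from 16.4 ± 1.42 to 13.3 ± 1.72 CPM with n = 5 and SD as the error (edgeR log2 fold change -0.31, SE 0.09; adjusted p = 0.181), and lost the call without control replicate 2 (-0.25) or 5 (-0.30) and without obese replicate 3 (-0.24), 4 (-0.33) or 5 (-0.27).

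None of 9 regulators of mitochondrial biogenesis was called by edgeR. Ppargc1a, the coactivator that drives mitochondrial gene programs, was at 104 ± 11.98, 103 ± 9.70 and 113 ± 13.2 CPM in control, obese and formerly obese mice (SD, n = 5). Esrra, a nuclear receptor it acts through, was at 177 ± 7.94, 182 ± 9.93 and 159 ± 12.4 CPM, with a log2 fold change of -0.20 in formerly obese against obese mice (SE 0.05; edgeR adjusted p = 0.117), under the fold cutoff. Pprc1, a related coactivator, had a log2 fold change of 0.22 in obese mice (SE 0.10; edgeR adjusted p = 0.447). For Ppargc1b, Nrf1, Gabpa, Gabpb1, Yy1 and Myc, log2 fold changes lay between -0.08 and 0.11 over the 3 comparisons. Transcripts of the mitochondrial genome itself, the ones that mitoribosomes translate, were not analysed here. Of 28 symbols sought for that genome, 0 were in the count table.

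The 80 genes of the cytosolic ribosome, a list taken after the data were seen, had a median log2 fold change of -0.13 in obese and -0.14 in formerly obese against control mice. The mitoribosomal medians were -0.01 and -0.02. The difference between the 2 families was not tested.

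Whole-genome bisulfite sequencing gave a list of 8199 differentially methylated regions (DMRs) between obese and control mice, 4123 with more methylation in obese mice (hyper) and 4076 with less (hypo). The list has no value per mouse. Of 76 members, 5 had a DMR within 5000 bases of the gene (6.58%), against 15.2% of all 24918 entries, and only Mrps25 had one within 2 kb of its start (1.32%, against 2.91%). Gene length was not matched in this comparison.

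DMRs inside a member were found in Mrpl23 and Mrps25, both hyper. The Mrpl23 region (mm10, chromosome 7, 142536134 to 142536141) is 8 bases long and holds 2 CpGs. The Mrps25 region (chromosome 6, 92182828 to 92183138) spans 311 bases with a CpG at each end and lies 885 bases from the start of the gene. Near the other 3, the regions lay past the gene's end, a hypo region 240 bases from Mrps5, a hypo region 2899 bases from Mrpl54 and a hyper region 4990 bases from Mrpl14. The sequences are shown on the plus strand of GRCm38.p6 with 20 bases around each region, the CpGs of the region in capitals, since each region rests on a single pair of CpGs.
Mrpl23, chr7:142536114-142536161: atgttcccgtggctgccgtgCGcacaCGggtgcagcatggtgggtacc
Mrps25, first end, chr6:92182808-92182848: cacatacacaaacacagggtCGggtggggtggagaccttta
Mrps25, last end, chr6:92183118-92183158: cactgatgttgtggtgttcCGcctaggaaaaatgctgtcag
Mrps5, chr2:127604206-127604261: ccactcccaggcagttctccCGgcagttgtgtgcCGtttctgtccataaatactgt
Mrpl54, chr10:81261800-81261843: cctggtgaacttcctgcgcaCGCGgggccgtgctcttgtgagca
Mrpl14, chr17:45703465-45703518: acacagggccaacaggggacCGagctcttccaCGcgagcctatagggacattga

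Expression of these 5 members in obese against control mice did not pass the test. The log2 fold changes were 0.51 (SE 0.30) for Mrpl23, 0.03 (SE 0.08) for Mrps25, -0.02 (SE 0.06) for Mrps5, 0.03 (SE 0.07) for Mrpl54 and -0.14 (SE 0.07) for Mrpl14. Mrps25, with a region near its start, read 29.2, 30.4, 29.6, 38.5 and 28.1 CPM in control libraries and 29.9, 30.9, 35.5, 32.9 and 29.8 CPM in obese libraries, and the groups overlapped throughout.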

How the data were processed

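Per the study's methods and the submitters' processing notes, the authors mapped 50-base paired reads of stranded mRNA libraries to mm10 with TopHat2 2.0.4 and used HTSeq; they deposited unnormalized gene counts, with a column for each mouse. The strand setting and annotation release are not given in the sources used here, so members that overlap another gene are uncertain. Mice were separate animals, and no sequencing batch was named. The deposited DMR list gives position and direction, and the deposited DESeq2 tables (fold changes and p-values) were not used.

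Counts were filtered (filterByExpr), scaled by TMM and fitted for all genes and all 15 libraries with edgeR 4.0.16 (quasi-likelihood, group as the only term) in R 4.3.3. DESeq2 1.42.0 was an alternative. Log2 CPM used a prior count of 2. On simulated data for obese against control mice with 12961 genes, 99 of 100 changes of 1 and 79 of 100 changes of 0.5 (log2) were called, with 36 false calls among the 12685 unchanged genes that passed the filter on the simulated counts. Changes nearer the fold cutoff (0.26 on the log2 scale), like those of Mrps10 and Mrps12, were not simulated. Shifts shared by many genes of a library were not simulated either. The simulation therefore does not show how often changes as small as those of most members would be called. Members and gene lists were chosen with earlier results of these data known. Named genes were the called members, in every comparison the 3 lowest p-values among higher and among lower members, the 4 highest and 4 lowest per kb, members near a DMR, 5 with unusual symbols, called genes of the other lists and all biogenesis regulators. Exon lengths, GC content and promoters came from RefSeq on GRCm38.p6.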

Additional observations from a re-analysis of the deposited data

Results flagged for a closer look

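Of 96 groups of 5 libraries examined (27 named members and 5 mean levels, in 3 groups each), 9 held a library whose gap to the nearest other took over 0.71 of the group's range. Chance alone flags about 1 in 20 such groups. The mean log2 CPM of all members in control replicate 4 was 5.3274, against 5.1577 in the next highest control library. It was 5.4073 for large subunit bacterial homologs and 5.4855 for large subunit proteins specific to mitochondria, against 5.2432 and 5.3178. Mrps25 stood at 38.472 CPM in the same library, against 28.111 to 30.387 in the others.

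Mrpl14 was high in obese replicate 5, at 42.936 CPM against 38.875 to 39.878, and low in formerly obese replicate 2, at 33.405 CPM against 41.053 to 42.128. Among obese libraries, Mrpl2 was low in replicate 4 (49.465 CPM against 52.974 to 53.725), and replicate 3 was low for Mrpl48 (21.414 CPM against 24.2 to 25.121) and for Mrps30 (26.664 CPM against 30.315 to 31.286).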

How the results depend on the processing

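In obese against control mice, 0 members were called under every alternative run. In the runs that kept the 3 cutoffs, 0.308% to 2.54% of all genes were called. In formerly obese against control mice the count was 0 under all of them except without formerly obese replicate 3, where Mrps12 was called (leaving out 1 library gave 0 to 1), and except for the same p cutoffs with no fold cutoff, an alternative chosen after seeing the data, which gave 2. In formerly obese against obese mice the 2 calls became 1 with DESeq2, RLE size factors, no filter on low counts, the GC trend removed, the length trend removed or the replicate block with the GC trend removed. They became 0 with the replicate block, 0 when an adjusted p under 0.05 was the sole requirement of the edgeR fit (by that requirement, applied to the other fits after seeing the data, 2 with DESeq2, Mrps34 and Mrps26, 1 with upper-quartile scaling, Mrps34, and 1 without control replicate 4), and 8 at the same p cutoffs with no fold cutoff. The counts with no fold cutoff are given without the share of all genes, so an excess over the background cannot be read from them. Leaving out 1 library gave 0 to 3 calls in formerly obese against obese mice, with 0 without obese replicate 1 or 3 or formerly obese replicate 2 or 5. Between samples with the same replicate number, deviations from the group means had correlations from -0.23 to 0.33. Samples with different numbers were not compared in this way, so whether the numbers pair the samples was not tested. The replicate block is given for completeness.

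The median log2 fold changes moved under every alternative by less than the SD of the mean level over the control libraries (0.08). That SD is widened by control replicate 4 and is 0.02 without it, and leaving out that library moved the median in obese mice from -0.01 to 0.05, more than the smaller SD. Of 838 alternative values for 42 fold changes of single members, 19 lost a call, 4 gained one and 14 changed sign, all 14 of fold changes near 0. Leaving out 1 library gave -0.0113 to 0.1069 for Mrpl54, -0.0139 to 0.1171 for Mrps25 and -0.0601 to 0.0127 for Mrps5 in obese against control mice, and -0.0529 to 0.0543 for Mrps6 in formerly obese against control mice. Mrpl54 was at -0.0132 with the GC trend removed and at -0.0089 with the replicate block and the GC trend removed, and Mrps6 at -0.0061 with upper-quartile scaling. The cause was not tested. The 5 members near a DMR became 1 within 2 kb of the gene start (1.32%, against 2.91% of all entries). They became 12 within 20 kb of the gene (15.8%, against 6229 of all 24918 entries). For overlap with the gene itself they became 2 (2.63%, against 11.2%). At each of these settings the share of members was below that of all entries, with gene length not matched. Counts of Mrpl23 (6 to 23 per library) limit what can be said of it.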
